A study of Mus musculus with 6 samples.

Results

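Collagen genes were followed in messenger RNA of whole lung from 6 mice. A row of the deposited table counted as a collagen when its symbol had the form Col, a type number, the letter a and a chain number, and when it held a read in at least 3 of the 6 libraries. This gave 42 of 43 collagen symbols among 25965 listed genes: 11 fibrillar chains (types I, II, III, V, XI, XXIV and XXVII), 6 chains of type IV and 25 others. Just inside the rule were Col9a1, with 10 reads spread over 4 libraries, and Col9a2, with 23 reads over 5. Col10a1 lay outside it with 2 reads, both in 1 toxin-treated mouse.

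All 6 mice were chimeras labelled ZBTB46 DTR, in which cells that use the dendritic cell gene Zbtb46 carry the diphtheria toxin receptor, and all spent 7 days at 10% oxygen. The 3 DT mice had diphtheria toxin in 3 doses, the first of 40 ng per g on the day before hypoxia began and the later ones of 8 ng per g at intervals of 3 days. The 3 PBS mice had the vehicle. The stated aim was to find lung processes that go with lesser pulmonary hypertension in the depleted animals. Nothing says whether same-numbered mice were handled together, so the main fit leaves out any pairing. Its p-values set the difference between the groups against the spread between mice within the groups, for these 6 lungs. Strain, age and sex, the donor and host of the chimeras, lungs kept in normal air and toxin given to mice without the receptor were not part of the data used here, so the loss of dendritic cells and the toxin itself cannot be told apart.

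Collagens are built from chains in which glycine recurs at a fixed spacing, which lets the chains wind into a triple helix. Fibrillar collagens pack into the cables that give vessel walls and alveolar septa their strength, and type IV chains form the sheet-like network of basement membranes under epithelium and endothelium. The other collagens decorate fibrils, anchor membranes, form beaded filaments or span the cell surface. In lungs of animals kept in hypoxia, remodelling of the pulmonary artery wall is known to include deposition of matrix, collagen among it.

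Library totals ran from 16766383 to 19084658 reads, and the 42 collagens together held 294552 reads over the 6 libraries. Fibrillar chains made up 26.1% of these, type IV chains 27.1% and the others 46.8%. Levels are in RPM, each library's reads scaled to a common total of 1000000, with the SD over 3 mice, and differences are log2 fold changes of DT over PBS on the log2(RPM + 1) scale with their standard error. Markers of the tissue were present, with the 10 alveolar type 1 markers summing to between 1066 and 1196 RPM and the 10 endothelial markers to between 876 and 960. The 10 markers of classical dendritic cells, the cells aimed at, summed to 196, 269 and 280 RPM in the PBS mice, in order of replicate, and to 210, 177 and 171 in the DT mice. Their median log2 fold change was -0.77, and limma called 0 of them. At an unadjusted p under 0.05, 6 of 10 were lower, against 4.03% of all genes. The sum of DT mouse 1 lay inside the PBS range, and 1 marker was called lower without PBS mouse 1.

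The reads of some densely covered genes hardly followed library size. Col4a2, the densest collagen at 0.504 reads per exonic base, had between 3318 and 3361 reads in each of the 6 libraries, a coefficient of variation of 0.509% where counting alone would give 1.73%. The library totals varied by 4.60%, and the RPM of Col4a2 by 4.54%. Reads varied less than counting for 5 of 40 tested collagens, Col4a2, Col1a2, Col6a2, Col13a1 and the rarely read Col11a1, and for 18.1% of all genes. Reads varied less than RPM for 23 of 40 collagens and for 39.8% of all genes. Above 0.4 reads per exonic base, 34.4% of all genes varied less than counting and 68.1% less than their RPM. Col23a1, at 0.415 reads per exonic base, varied by 6.2% in reads and in RPM alike, where counting would give 2.05%. Sftpc, the surfactant protein C gene known as a leading transcript of alveolar type 2 cells, stood at only 8.91 RPM (rank 12662), while the long gene Ahnak led at 804. Levels are therefore not read as an order of abundance between genes.

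DT mouse 1 had the smallest library and the highest RPM of the 6 mice in 21 of 40 collagens. It was the highest in 5089 of all 16708 genes tested. PBS mouse 1 was the highest in 7 of 40 collagens and in 5130 of all genes tested. Over all tested genes the share with DT mouse 1 highest grew with the reads per exonic base. It went from 12.4% below 0.02 to 45.2% between 0.2 and 0.4 and 61.3% above 0.4. Among collagens it was 1 of 11 in the sparsest range, 10 of 13 between 0.2 and 0.4 and 2 of 2 above. The part of library depth in the small differences of dense collagens was not tested beyond the values without that mouse and without scaling that stand beside the results.

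**Figure D1:**
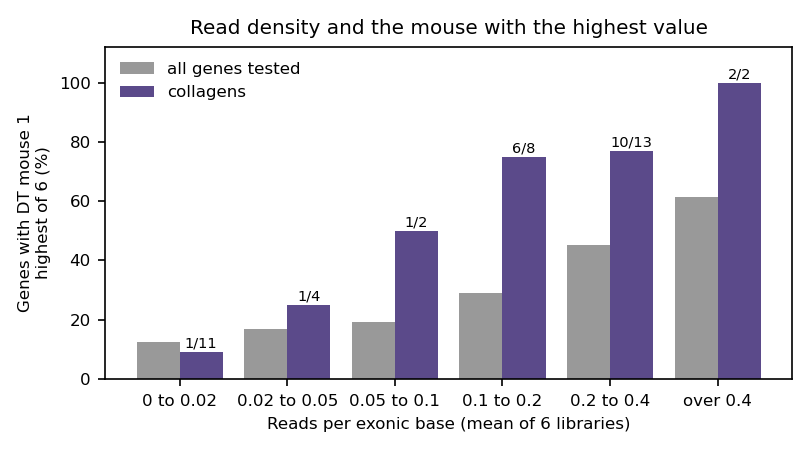
Share of genes (vertical axis, percent) for which DT mouse 1 had the highest RPM of the 6 mice, by mean reads per exonic base (horizontal axis), for all genes tested (grey) and for collagens (purple, with counts above the bars). The grey bars climb from 12.4% to 61.3%, and the purple ones from 1 of 11 to 2 of 2.

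No collagen passed the test between the groups. Of 40 collagens that passed the filter on low values, 0 rose and 0 fell over all genes tested (limma, Benjamini-Hochberg below 0.05). Over all 16708 genes, 0.275% were called higher and 0.00599% lower. At an unadjusted p under 0.05 there was 1 collagen higher, Col22a1, and 1 lower, Col8a2, against 5.0% of all genes higher and 4.03% lower (9.03% in either direction). The count stayed at 0 in both directions with limma-voom on the recovered reads and without any 1 of the 6 mice. Over all genes, 0 were called higher without DT mouse 1 and 0 lower without PBS mouse 3. The collagen counts of those fits in those directions therefore add nothing. Fold changes lay within 0.2 of 0 on the log2 scale for 31 of 40 collagens (77.5%), against 82.8% of all genes. The 95% confidence interval lay inside 1 log2 unit on either side of 0 for 39 of 40, and inside 0.5 for 29. Fold changes were smaller where reads were denser: 95% of all genes lay within 0.663 of 0 below 0.02 reads per exonic base and within 0.144 above 0.4. Whether the near-constant reads of some dense genes narrow the differences and intervals of dense collagens was not tested. In whole tissue, fewer cells of a type and less RNA per cell cannot be told apart.

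Groups did not overlap for 7 of 40 collagens (17.5%), against 14.4% of all genes tested. All DT mice stood above all PBS mice for 6 (7.65% of all genes), Col2a1, Col6a2, Col6a5, Col13a1, Col22a1 and Col23a1, and below for 1 (6.79% of all genes), Col8a2. The log2 fold change was positive for 30 of 40, or 75.0%, against 50.4% of all genes. That count was 24 of 40 (60.0%) without DT mouse 1, where 43.3% of all genes were positive, and 22 (55.0%) when reads were not scaled to the library total (30.7% of all genes). Of all genes, 65.3% were positive above 0.4 reads per exonic base and 49.1% below 0.02, with the lowest share, 45.4%, between 0.05 and 0.1. Above 0.4 lay only 2 collagens, both positive. Between 0.2 and 0.4, 11 of 13 collagens were positive, against 53.8% of all genes there. Between 0.1 and 0.2 it was 6 of 8, against 47.7%. The part of read density in the count of positive collagens was not tested.

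**Figure D2:**
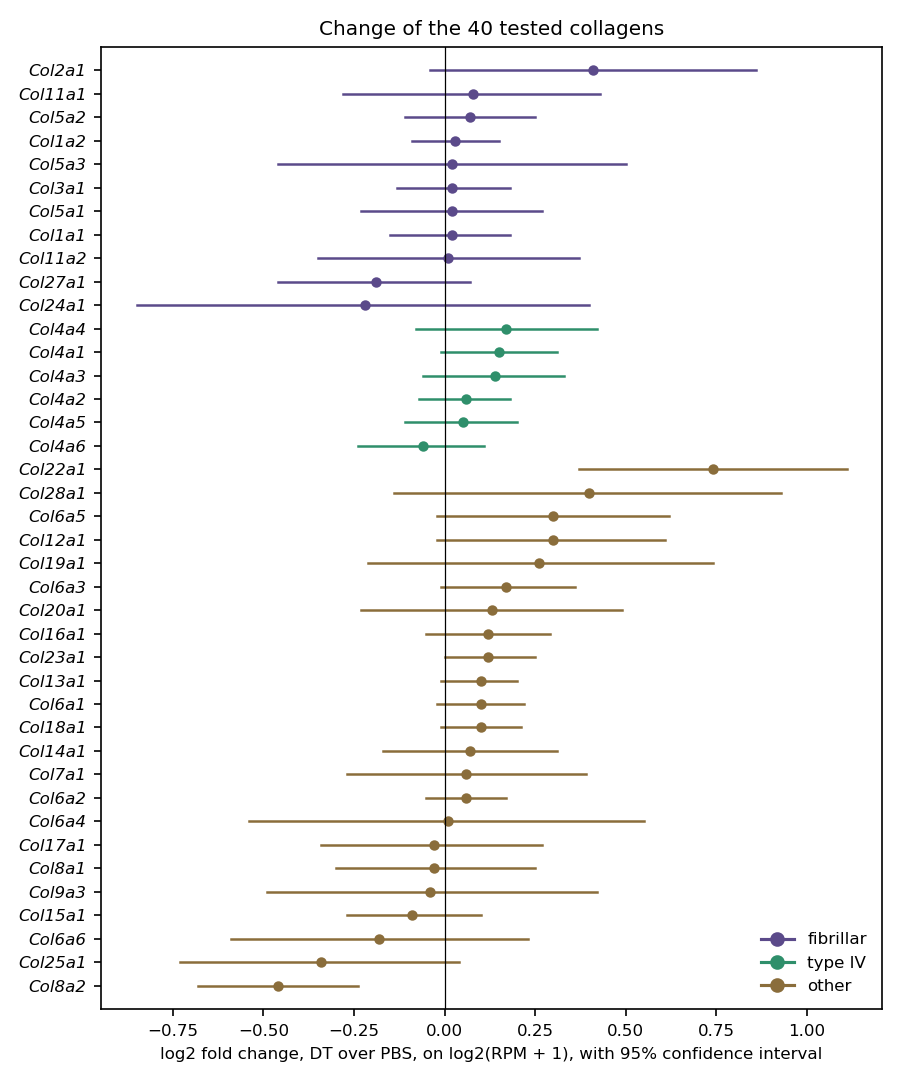
Log2 fold change of DT over PBS on the log2(RPM + 1) scale (horizontal axis) for each of the 40 tested collagens (vertical axis), with its 95% confidence interval, coloured by class. The intervals of Col22a1 (0.37 to 1.11) and Col8a2 (-0.68 to -0.24) stand clear of 0, and neither gene passed the test over all genes.

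The main fibril-forming chains of the lung differed by less than the spread between mice. Type I collagen is a trimer of Col1a1 and Col1a2 chains. Col1a1 (ENSMUSG00000001506, mm10 chromosome 11, 94936224 to 94953042, plus strand) stood at 150, 129 and 134 RPM in PBS mice 1 to 3 and at 151, 131 and 137 in DT mice 1 to 3. The groups overlapped fully, with mouse 1 the highest in each, and the log2 fold change was 0.02 ± 0.07 (95% interval -0.15 to 0.18, adjusted p = 0.969). Its partner Col1a2, on chromosome 6, was at 129, 121 and 120 RPM in PBS and 132, 121 and 124 in DT, with a difference of 0.03 ± 0.05. Per exonic kilobase, the ratio of Col1a1 to Col1a2 was between 2.03 and 2.20 in all 6 mice. Its group means were 2.11 ± 0.0858 (SD, n = 3) in PBS and 2.10 ± 0.0527 in DT. The size of this ratio rests on exonic lengths of 6.56 kb for Col1a1 and 12.43 kb for Col1a2. It is not read as the proportion of the chains.

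Col3a1, the fibrillar chain of distensible tissue such as vessels and septa, was at 128, 114 and 116 RPM in PBS and 132, 114 and 117 in DT (0.02 ± 0.07, 95% interval -0.13 to 0.18, adjusted p = 0.963). Its mice stood in nearly the same order as for Col1a1, and the ratio of Col3a1 to Col1a1 per kilobase lay between 0.568 and 0.590. The directions of Col1a1 and Col3a1 turned without DT mouse 1, to -0.04 for both, and with reads not scaled to the total, to -0.03 for both. Both chains are dense, at 0.386 and 0.223 reads per exonic base, so their narrow intervals hold for these reads only.

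Type V chains nucleate type I fibrils and limit their width. Col5a1 was at 148, 113 and 133 RPM in PBS and 148, 119 and 130 in DT, a difference of 0.02 ± 0.11. Col5a2 was at 95.8, 82.1 and 85.1 RPM in PBS and 102, 85.5 and 89.1 in DT, a difference of 0.07 ± 0.08. In each of these chains mouse 1 was the highest and mouse 2 the lowest of its group. Col5a3 showed the same order more widely, at 23, 12.3 and 16.9 RPM in PBS and 19.7, 14.3 and 17.8 in DT (0.02 ± 0.21), so that its groups overlapped over nearly their whole range.

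Among the other fibrillar chains, Col27a1 and Col24a1 had the lowest fold changes and Col2a1 and Col11a1 the highest. Col27a1, a chain with a short helix known from developing cartilage, was at 79.5, 59.7 and 79.2 RPM in PBS and 66.5, 66.1 and 56.7 in DT. PBS mouse 2 lay inside the DT range, and the difference was -0.19 ± 0.11 (adjusted p = 0.675). Col24a1, a relative expressed in bone, was at 4.16, 1.81 and 3.93 RPM in PBS and 3.70, 1.96 and 2.23 in DT (-0.22 ± 0.27), with each group split between 1 or more mice near 2 RPM and the rest near 4. Without PBS mouse 2 the difference of Col24a1 was -0.50, and without PBS mouse 1 it was -0.07.

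Col2a1, the main collagen of cartilage, was read only 70 times over the 6 libraries. It stood at 0.555, 0.586 and 0.105 RPM in PBS and 0.596, 0.956 and 1.03 in DT. The groups did not overlap, but PBS mouse 2 and DT mouse 1 nearly met, at 11 and 10 reads, and the difference was 0.41 ± 0.20 (adjusted p = 0.584). It was 0.24 without PBS mouse 3. With 0.1 RPM added in place of 1 it was 1.06 ± 0.52 (limma, adjusted p = 0.595), so its size rests on the scale. Among 15 chondrocyte markers, 8 could be tested and 0 were called, with a median of -0.15. Snorc and Epyc had no read in any library, Acan was at no more than 0.367 RPM in any mouse, and the 15 markers summed to between 163 and 177 RPM in PBS and 151 and 173 in DT.

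Type XI chains accompany type II in cartilage fibrils. Col11a1 was at 0.444, 0.533 and 0.681 RPM in PBS and 0.477, 0.797 and 0.653 in DT (0.08 ± 0.15). Col11a2 was at 7.43, 5.60 and 6.03 RPM in PBS and 5.25, 6.69 and 7.29 in DT (0.01 ± 0.16). Both overlapped between the groups. No fibrillar chain reached an unadjusted p under 0.05. Summed over all 11 chains, the fibrillar collagens came to 766, 639 and 695 RPM in PBS and 761, 661 and 682 in DT, and their median log2 fold change was 0.02, beside 0.00 for all genes tested. The sign of that median turned with single libraries: it was -0.04 without DT mouse 1, -0.03 without PBS mouse 2 or with reads not scaled, and 0.08 without PBS mouse 1.

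**Figure D3:**
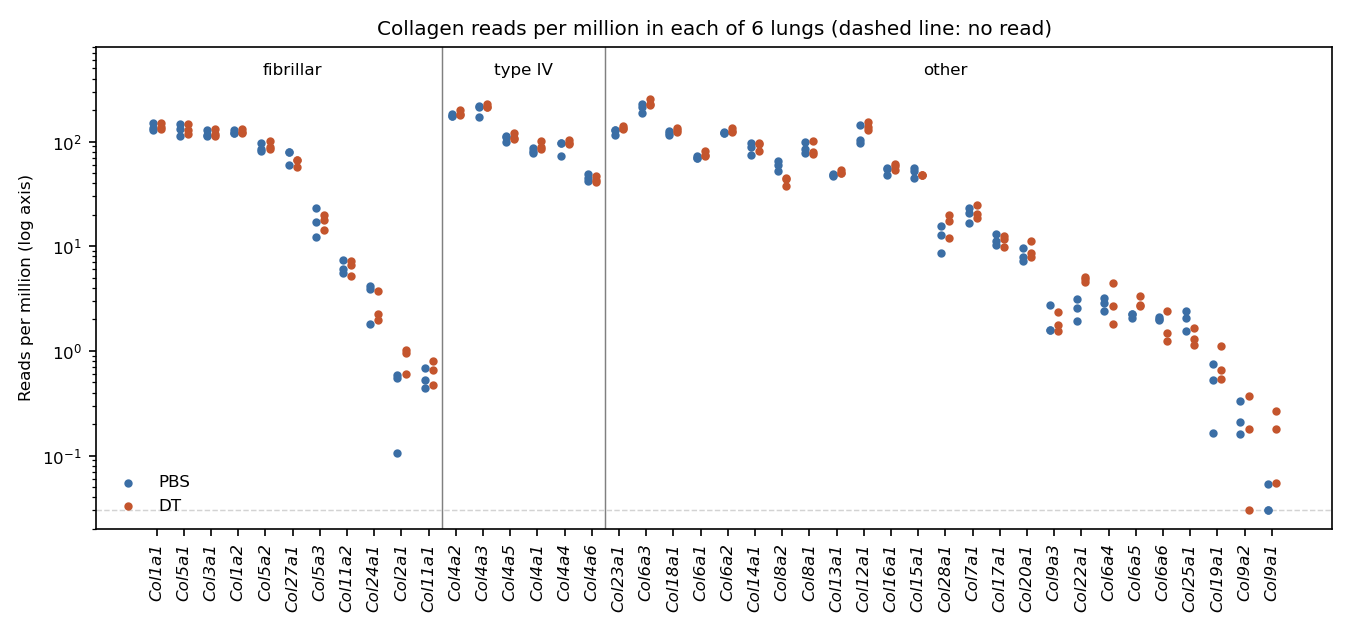
RPM on a log axis for each of the 42 collagens in each lung, PBS in blue and DT in orange, grouped by class and ordered within a class by level per exonic kilobase. Levels span from Col6a3, at 187 to 254 RPM, down to Col9a1, which had no read in 2 PBS mice, and for most genes the blue and orange points cover the same range.

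Type IV chains are encoded in pairs that lie head to head and are transcribed in opposite directions. In mm10, Col4a4 (minus strand) and Col4a3 (plus strand) lie 71 bases apart on chromosome 1. Col4a1 (minus) and Col4a2 (plus) overlap by 22 bases on chromosome 8, and Col4a6 (minus) and Col4a5 (plus) are 1308 bases apart on the X chromosome. Windows of these shared regions, from 250 bases before to 50 bases after the start, were taken from RefSeq (GRCm38.p6), which had a window for 34 of 42 collagens. They are written 5′ to 3′ along the gene's own strand, with capitals marking any match, on either strand, to a GC box (GGGCGG), the CCAAT box with those letters, the TATA box written as TATAAA, the hypoxia response core (ACGTG) or a Smad-binding element (CAGACA).
Col4a1, chr8:11312777-11313076, minus strand: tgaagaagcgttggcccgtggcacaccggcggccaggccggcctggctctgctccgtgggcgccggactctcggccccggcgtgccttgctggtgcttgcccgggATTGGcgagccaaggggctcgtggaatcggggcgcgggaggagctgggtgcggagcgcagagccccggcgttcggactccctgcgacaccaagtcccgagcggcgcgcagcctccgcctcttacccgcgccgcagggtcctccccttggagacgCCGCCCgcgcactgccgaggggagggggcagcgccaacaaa
Col4a4, chr1:82586800-82587099, minus strand: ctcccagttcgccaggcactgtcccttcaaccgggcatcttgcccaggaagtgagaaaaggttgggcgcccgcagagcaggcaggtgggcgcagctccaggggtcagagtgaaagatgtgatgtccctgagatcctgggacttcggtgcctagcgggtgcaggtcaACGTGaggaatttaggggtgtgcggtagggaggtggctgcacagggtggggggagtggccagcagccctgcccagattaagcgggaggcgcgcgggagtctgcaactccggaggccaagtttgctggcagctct
Col4a6, chrX:141474027-141474326, minus strand: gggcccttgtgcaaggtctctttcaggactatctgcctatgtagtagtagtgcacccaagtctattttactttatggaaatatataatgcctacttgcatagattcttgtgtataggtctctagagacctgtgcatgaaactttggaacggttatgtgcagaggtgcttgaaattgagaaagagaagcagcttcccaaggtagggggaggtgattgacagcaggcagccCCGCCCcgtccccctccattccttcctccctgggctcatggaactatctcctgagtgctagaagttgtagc
Col4a5, chrX:141475169-141475468, plus strand: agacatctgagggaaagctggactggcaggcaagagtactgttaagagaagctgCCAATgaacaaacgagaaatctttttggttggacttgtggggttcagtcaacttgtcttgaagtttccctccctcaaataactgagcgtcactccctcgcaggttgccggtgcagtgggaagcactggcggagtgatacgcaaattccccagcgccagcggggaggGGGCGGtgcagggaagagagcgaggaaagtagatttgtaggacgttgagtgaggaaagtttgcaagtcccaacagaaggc

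The Col4a1 window, which also covers the start of Col4a2, held 1 GC box and 1 CCAAT box in a sequence of 74.0% G and C. The Col4a4 window, which also covers the start of Col4a3, held 1 hypoxia response core, Col4a6 held 1 GC box, and Col4a5 held 1 GC box and 1 CCAAT box. Of 37 collagen windows, 23 (62.2%) held a GC box against 35.7% of all 32851 windows, and the median share of G and C was 60.0% against 52.7%. A hypoxia response core was in 5 (13.5%) against 19.6% of all windows, a CCAAT box in 13 (35.1%) against 37.4%, a TATA box in 4 (10.8%) against 13.6% and a Smad-binding element in 9 (24.3%) against 21%. Matches of such short words describe the letters only.

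The ubiquitous pair of vascular and epithelial basement membranes, Col4a1 and Col4a2, did not pass the test. Col4a1 was at 78.4, 86.5 and 81.5 RPM in PBS and 101, 89.1 and 84.5 in DT. DT mouse 1 stood apart above the rest while DT mouse 3 lay inside the PBS range, and the difference was 0.15 ± 0.07 (95% interval -0.01 to 0.31, adjusted p = 0.572), or 0.08 without DT mouse 1. Col4a2 was at 184, 177 and 175 RPM in PBS and 198, 178 and 183 in DT, a difference of 0.06 ± 0.05 that was 0.01 without DT mouse 1. Per exonic kilobase the ratio of Col4a1 to Col4a2 was 0.407 ± 0.0285 in PBS and 0.435 ± 0.0221 in DT.

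Col4a3, Col4a4 and Col4a5 form the network of the alveolar and glomerular basement membranes and are the genes mutated in Alport syndrome. Col4a3 was at 173, 215 and 217 RPM in PBS and 230, 215 and 216 in DT. PBS mouse 1 stood apart below the other 5 mice, and the difference of 0.14 ± 0.09 (adjusted p = 0.701) was 0.03 without that mouse. Col4a4 repeated the pattern at 72.1, 96.2 and 97.8 RPM in PBS and 104, 97.4 and 95 in DT, with a difference of 0.17 ± 0.11 that was again 0.03 without PBS mouse 1. The ratio of Col4a3 to Col4a4 per kilobase was 2.35 to 2.56 in all 6 mice, and both genes were lowest in PBS mouse 1.

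Col4a5 was at 99.0, 111 and 114 RPM in PBS and 120, 106 and 109 in DT (0.05 ± 0.07, or -0.01 without PBS mouse 1). Its neighbour Col4a6, a chain of smooth muscle and some epithelial basement membranes, was at 42.3, 45.0 and 49.4 RPM in PBS and 41.0, 47.3 and 42.5 in DT (-0.06 ± 0.08). These neighbours were not in step: DT mouse 1 was the highest of 6 for Col4a5 and the lowest for Col4a6, and the ratio of Col4a5 to Col4a6 ran from 2.66 to 3.47. For type IV as a class the median was 0.10, but 0.03 without PBS mouse 1 and 0.05 without DT mouse 1 or with reads not scaled. Of the 6 chains, 5 were positive (83.3%, against 50.4% of all genes). Called were 0 (0.281% of all genes), and 0 had groups apart (14.4% of all genes). The summed level was 650, 731 and 734 RPM in PBS and 794, 733 and 730 in DT.

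**Figure D4:**
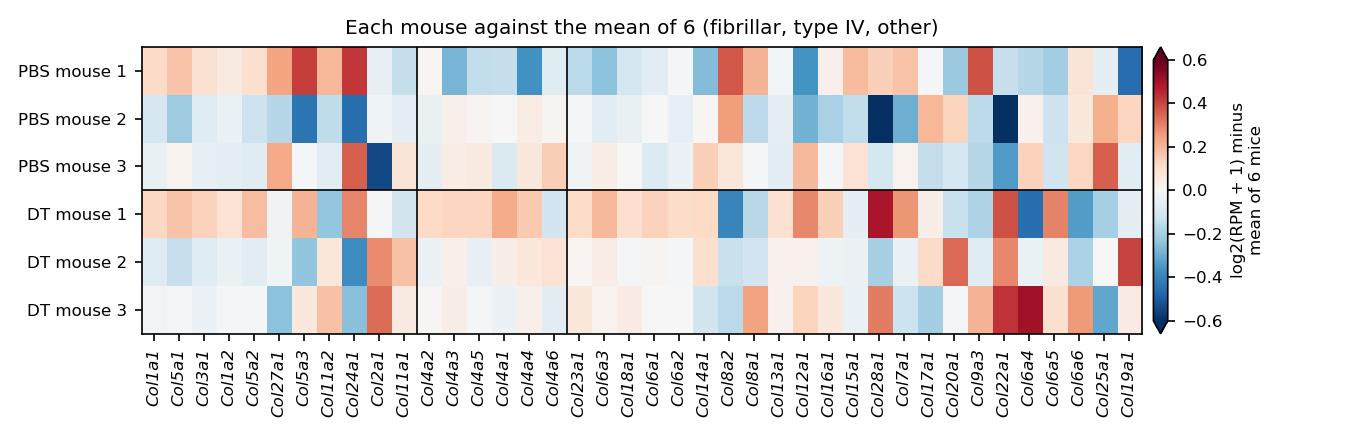
Difference of each mouse (rows) from the mean of all 6 on the log2(RPM + 1) scale (colour, blue lower and red higher) for the 40 tested collagens (columns), with lines between fibrillar, type IV and other chains and between PBS and DT. PBS mouse 1 is blue for Col4a3 and Col4a4, PBS mouse 2 is blue along most fibrillar chains, and DT mouse 1 is pale red over most dense genes.

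The lowest fold change on the log2(RPM + 1) scale was that of Col8a2, which did not pass the test over all genes. It is a short chain that builds hexagonal lattices and is known from the Descemet membrane of the cornea. On the deposited log2 values the rarely read Col25a1 was lower, at -0.55 against -0.47. Col8a2 (ENSMUSG00000056174, chromosome 4, 126286793 to 126314330, plus strand) was at 64.6, 59.3 and 52.0 RPM in PBS and 37.5, 45.2 and 44.2 in DT. Every DT mouse lay below every PBS mouse, with means of 58.6 ± 6.30 and 42.3 ± 4.2 (SD, n = 3). The log2 fold change was -0.46 ± 0.10 (95% interval -0.68 to -0.24, unadjusted p = 0.00120, adjusted p = 0.163, limma). It ran from -0.54 without PBS mouse 3 to -0.38 without DT mouse 1, with adjusted p between 0.0844 and 0.420, and was -0.51 when reads were not scaled. At 0.207 reads per exonic base, its absolute log2 change lay above 0.194, the size that 95% of genes between 0.2 and 0.4 stayed under. Between 0.1 and 0.2 that size was 0.288. Col8a2 was picked for its low fold change, so this comparison is not a test.

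Col8a1, the partner chain made by vascular smooth muscle and other cells, did not show this. It was at 99.5, 77.2 and 85.8 RPM in PBS and 76.8, 79.5 and 102 in DT, with overlapping groups and a difference of -0.03 ± 0.12 (adjusted p = 0.970). The ratio of Col8a1 to Col8a2 per kilobase was 0.883, 0.746 and 0.945 in PBS and 1.17, 1.01 and 1.32 in DT, so that all DT mice lay above all PBS mice; this ratio was chosen after its values were seen and was not tested. The promoter window of Col8a2 is shown because it is the collagen with the lowest fold change on the log2(RPM + 1) scale. The window holds 4 GC boxes in 71.7% G and C, and none of the other motifs.
Col8a2, chr4:126286544-126286843, plus strand: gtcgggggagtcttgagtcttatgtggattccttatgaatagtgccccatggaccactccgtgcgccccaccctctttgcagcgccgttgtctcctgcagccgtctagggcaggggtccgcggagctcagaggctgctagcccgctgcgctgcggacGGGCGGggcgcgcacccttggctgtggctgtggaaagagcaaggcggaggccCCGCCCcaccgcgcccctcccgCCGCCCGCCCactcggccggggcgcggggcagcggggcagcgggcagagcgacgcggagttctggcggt

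The highest fold change on the log2(RPM + 1) scale, again short of the threshold, was that of Col22a1. This is a fibril-associated collagen of tissue junctions such as that between muscle and tendon. With 0.1 RPM added in place of 1, the rarely read Col2a1 stood higher, at 1.06 against 0.93. On the deposited log2 values it was 1.37 against 0.96. Col22a1 (ENSMUSG00000079022, chromosome 15, 71795795 to 72034227, minus strand) was at 3.11, 1.92 and 2.57 RPM in PBS and 4.89, 4.51 and 5.11 in DT, from 36 to 56 and from 82 to 94 reads. All DT mice lay above all PBS mice. The log2 fold change was 0.74 ± 0.16 (95% interval 0.37 to 1.11, unadjusted p = 0.00161, adjusted p = 0.197, limma) and ran from 0.61 without PBS mouse 2 to 0.85 without PBS mouse 1, with adjusted p between 0.0979 and 0.550. At 0.00728 reads per exonic base it was among the sparse members, in which DT mouse 1 was the highest for 1 of 11.

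**Figure D5:**
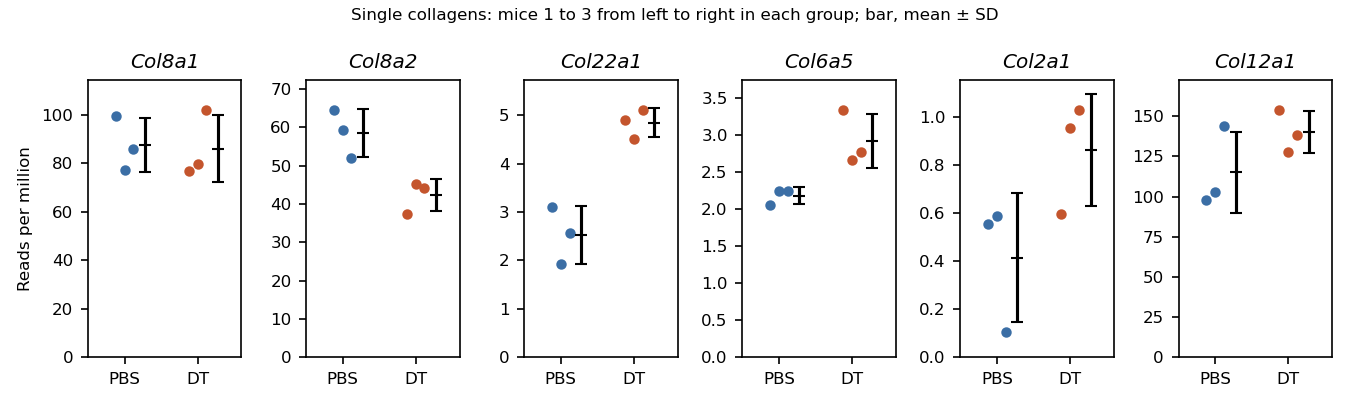
RPM in each mouse (points, mice 1 to 3 from left to right) with mean and SD (bars, n = 3) for 6 collagens, PBS in blue and DT in orange, on axes that start at 0. Col8a2 is lower and Col22a1 higher in each DT mouse, while Col8a1 overlaps and Col12a1 has PBS mouse 3 among the DT mice.

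Other fibril-associated collagens sit on the surface of type I fibrils and link them to their surroundings. Col12a1 was at 97.9, 103 and 144 RPM in PBS and 154, 128 and 138 in DT. PBS mouse 3 lay inside the DT range, and the difference was 0.30 ± 0.14 (adjusted p = 0.567), from 0.19 without PBS mouse 1 to 0.47 without PBS mouse 3. Tnc, which encodes the matrix glycoprotein tenascin-C and was noticed after its values were seen, was at 96.5, 91.7 and 127 RPM in PBS and 160, 120 and 133 in DT (0.39 ± 0.14, adjusted p = 0.450), again with PBS mouse 3 inside the DT range. Tnc is 1 of the 10 myofibroblast markers counted further below. Of these, 4 had a positive and 6 a negative fold change, with a median of -0.11. Col14a1 was at 74.0, 89.2 and 97.9 RPM in PBS and 96.6, 95.2 and 82.0 in DT (0.07 ± 0.10, or -0.04 without PBS mouse 1). Col16a1 differed by 0.12 ± 0.07 and Col20a1 by 0.13 ± 0.16, each with overlap.

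The cartilage chain Col9a3 was at 1.57 to 2.77 RPM in PBS and 1.55 to 2.34 in DT, and Col19a1, a rare fibril-associated chain with 69 reads in all, differed by 0.26 ± 0.21. On the deposited log2 values Col19a1 differed by 0.86 ± 0.62. Col9a1 and Col9a2 fell short of the filter and were not tested. Col9a1 had 1 read over the PBS mice and 3, 5 and 1 reads in DT mice 1 to 3. Col9a2 had 6, 3 and 4 reads in PBS and 3, 7 and 0 in DT, and a count of 0 there allows up to 0.163 RPM, for counting error only. Of 7 fibril-associated members tested, 6 were positive (85.7%, against 50.4% of all genes), with a median of 0.13. The groups were apart for 1 (14.3%, against 14.4% of all genes).

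Type VI chains assemble into beaded filaments around cells. Col6a1 was at 69.9, 73.3 and 69.0 RPM in PBS and 80.6, 74.0 and 73.0 in DT (0.10 ± 0.05). Col6a2 was at 124, 121 and 122 RPM in PBS and 135, 124 and 125 in DT, a difference of 0.06 ± 0.05 that was 0.02 without DT mouse 1. Its groups barely cleared each other, and its reads, between 2236 and 2336 in all mice, varied less than counting error. Col6a3 was at 187, 212 and 229 RPM in PBS and 254, 229 and 225 in DT (0.17 ± 0.08, adjusted p = 0.579). Col6a4, Col6a5 and Col6a6 neighbour each other on chromosome 9, and differences between them were not tested. Col6a5 was at 2.05, 2.24 and 2.25 RPM in PBS and 3.34, 2.66 and 2.77 in DT (0.30 ± 0.14, adjusted p = 0.568). Col6a4 differed by 0.01 ± 0.24 and Col6a6 by -0.18 ± 0.18, and in both DT mouse 1 was the lowest and DT mouse 3 the highest of the 6.

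Collagens of the cell surface and of basement membrane borders completed the list. Col23a1, a transmembrane collagen, was at 116, 129 and 128 RPM in PBS and 140, 131 and 136 in DT, with the groups narrowly apart and a difference of 0.12 ± 0.05 (adjusted p = 0.556) that was 0.07 without PBS mouse 1. Col13a1, a transmembrane collagen of cell contacts, was at 49.0, 47.6 and 47.3 RPM in PBS and 53.0, 50.6 and 50.5 in DT (0.10 ± 0.05), and its 883 to 953 reads varied less than counting error. Col18a1, the source of the fragment endostatin, was at 116, 121 and 125 RPM in PBS and 134, 124 and 129 in DT (0.10 ± 0.05). Its relative Col15a1 pointed the other way at -0.09 ± 0.08.

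Col25a1, a membrane collagen of neurons, was at 1.55, 2.08 and 2.41 RPM in PBS and 1.31, 1.65 and 1.14 in DT, with a difference of -0.34 ± 0.17 (adjusted p = 0.591). DT mouse 2 lay inside the PBS range. Col28a1, a relative of type VI chains, was at 15.5, 8.63 and 12.9 RPM in PBS and 20, 12 and 17.5 in DT, a difference of 0.40 ± 0.23 that was 0.18 without PBS mouse 2. Col7a1, the anchoring fibril collagen, differed by 0.06 ± 0.14 and Col17a1, a hemidesmosome collagen, by -0.03 ± 0.13. Over the 25 other collagens, 23 were tested, 16 were positive (69.6%, against 50.4% of all genes), 6 had groups apart (26.1%, against 14.4%) and 0 were called. Their median was 0.10, or 0.05 with reads not scaled.

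Genes that make, cut, bind and sense collagen were counted by list. Unless said otherwise, limma and limma-voom each called 0 of them. At an unadjusted p under 0.05 in limma, 5.0% of all genes were higher and 4.03% lower, or 9.03% in either direction. The shares in either direction were 4.17% for folding, 15.4% for processing and crosslinking and 7.69% for receptors. Of 24 genes for chain folding, hydroxylation and glycosylation, 0 were higher and 1 lower at an unadjusted p under 0.05, and the median was 0.01. The most reads per library went to the peroxidase Pxdn (0.03 ± 0.05), which crosslinks type IV collagen, and to the exporter Mia3 (0.05 ± 0.04). Colgalt2, a galactosyltransferase for hydroxylysine, had the lowest p of this list at 44.2, 44.8 and 46.1 RPM in PBS and 32.3, 38.5 and 39.3 in DT (-0.29 ± 0.08, adjusted p = 0.308). Of 16 genes for procollagen processing and crosslinking, 13 were tested, with 1 higher and 1 lower at an unadjusted p under 0.05, a median of 0.05, the propeptidase Adamts2 at -0.05 ± 0.12 and the lysyl oxidase Lox at 0.04 ± 0.06. Of 13 receptors, 1 was higher at an unadjusted p under 0.05 and the median was 0.03, with Ddr2 at 0.03 ± 0.05 and the uptake receptor Mrc2 at 0.04 ± 0.05.

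Thbs4, which encodes thrombospondin-4, a glycoprotein that binds collagen, was the gene of the matrix lists that passed the test. Thbs4 (ENSMUSG00000021702, chromosome 13, 92751590 to 92794818, minus strand) was at 0.998, 1.65 and 1.15 RPM in PBS and 7.22, 5.95 and 4.51 in DT, with every DT mouse well above every PBS mouse. It rose by 1.6 ± 0.19 on the log2 scale (adjusted p = 0.0145). It was 1 of 25 tested collagen-binding proteoglycans and glycoproteins, where 0.275% of all genes were called higher. At an unadjusted p under 0.05 the list had 4 higher and 4 lower (32.0%, against 9.03% of all genes), its groups were apart for 6 (24%, against 14.4%), and its median was 0.00. The call was lost without DT mouse 1 (1.46, adjusted p = 0.140), narrowly with reads not scaled to the total (0.0501), and with the replicate numbers as a block (0.130). In these fits few genes of the whole table were called higher: 0 without DT mouse 1, 17 with reads not scaled and 8 with the block. The members of this list with the highest RPM were Tnxb (0.17 ± 0.12) and Thbs1 (0.29 ± 0.09, adjusted p = 0.409).

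Laminins and other basement membrane proteins, 16 in all, were all positive (50.4% of all genes) with a range of 0.01 to 0.28. Their median was 0.13, but 0.06 without PBS mouse 1, 0.07 without DT mouse 1 and 0.08 with reads not scaled. Of them 0 were called, 4 were higher at an unadjusted p under 0.05 (5.0% of all genes), and 6 had all DT mice above all PBS mice (7.65% of all genes). Perlecan, Hspg2, was at 225, 276 and 289 RPM in PBS and 327, 305 and 288 in DT (0.23 ± 0.10) and the nidogen Nid1 differed by 0.01 ± 0.05. DT mouse 1 had the highest sum of the list, 2404 RPM against 1979 to 2241 in the others. Of 17 TGF-beta ligands, receptors and matrix-inducing targets, 2 were higher at an unadjusted p under 0.05 (11.8%, against 5.0% of all genes). Their median was 0.04, with the latent TGF-beta binding protein genes Ltbp2 at 0.11 ± 0.05 and Ltbp1 at 0.03 ± 0.05. Of 10 collagenases, gelatinases and their inhibitors, 2 were higher at an unadjusted p under 0.05 and the median was 0.10, with Timp3 at 0.04 ± 0.05 and Mmp2 at 0.05 ± 0.06. Mmp8, the collagenase of neutrophils, was at 11.9, 13.7 and 13.9 RPM in PBS and 22.4, 19.6 and 19.9 in DT, with the groups apart, and missed the threshold (0.61 ± 0.10, adjusted p = 0.0620). Without DT mouse 1 the medians were -0.02 for folding, -0.01 for processing and crosslinking, 0.00 for receptors and for the TGF-beta list, and 0.06 for collagenases.

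Marker lists of cells that make collagen had 0 genes called by limma or limma-voom; at an unadjusted p under 0.05 the myofibroblast list had 3 higher and 4 lower (70.0%, against 9.03% of all genes) and the other 3 had 0. The groups were apart for 4 of 10 myofibroblast markers (40.0%, against 14.4% of all genes), 2 in each direction. They were lung fibroblasts (12 tested, median 0.03, summed level 743 to 794 RPM in PBS and 761 to 806 in DT), myofibroblasts (10, -0.11, 418 to 458 and 438 to 497), smooth muscle (10, -0.03, 560 to 578 and 542 to 583) and pericytes (10, -0.02, 970 to 993 and 975 to 997). Limma also called 0 for endothelium (median 0.00), alveolar type 1 cells (0.07), airway basal cells (0.02), mesothelium (0.21), adipocytes (-0.44), cardiac muscle (-0.31) and the hypoxia targets (0.05). Cardiac markers summed to 352 to 402 RPM in PBS and to 257, 407 and 244 in DT mice 1 to 3, with 4 of 10 called lower without DT mouse 2, and mesothelial markers to 264, 379 and 320 in PBS and 376, 312 and 397 in DT. Erythroid markers stood at 46.4 to 73.1 RPM in PBS and 206 to 277 in DT, with 8 of 9 called higher (0.275% of all genes), 3 without DT mouse 3, 0 without DT mouse 1, 5 with the replicate block and 4 with reads not scaled. Without DT mouse 1, where 0 of all genes were called higher, the erythroid median was 1.98, beside 2.17 with all mice. Without PBS mouse 1 the mesothelial median was 0.07, and the adipocyte median ran from -0.72 without DT mouse 2 to -0.22 without PBS mouse 2. The part of these lists in the values of single collagens was not tested.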

How the data were processed

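Values for 25965 genes, with mm10 positions, were deposited on the log2 scale as RPM. FastQC and Trimmomatic are named in the submitters' processing notes; the aligner, counting program, strand setting and handling of duplicates are not given in the sources used. On the linear scale all values above each library's lowest were whole multiples of 1 read (100% at a tolerance of 0.1%), which gave reads and totals, and the lowest value, 0.9 of a read, was set to 0. Groups came from the sample titles, which do not say more of how replicates differ. No 2 libraries were alike within counting noise. The log2(RPM + 1) values were fitted with limma 3.58.1 (trended variance, R 4.3.3), DT against PBS, two-sided, with Benjamini-Hochberg adjustment over 16708 genes with at least 0.538 RPM in 3 libraries and 15 reads in all. Alternatives were other scalings, filters, pseudocounts, limma-voom on recovered reads, a replicate block and leaving out each mouse; unscaled reads were added after seeing the data. Exonic lengths are unions of GENCODE M21 exons. Values of every mouse were given for the 8 fibrillar and 8 other chains with the highest RPM per exonic kilobase. The same holds for each type IV chain and the largest changes of each class. In the matrix lists, genes past the threshold and the 2 of a list with the highest RPM were named. Of these, Thbs4 and Hspg2 have values of every mouse, and the rest have fold changes only. Marker genes past the threshold were counted and not named. Genes named outside this rule, such as Col6a5, Col12a1, Col13a1, Colgalt2, Mmp8 and Tnc, were chosen after their values were seen. The collagens and the 21 gene lists were chosen with earlier results of these data known. Matching used current symbols for 14 list genes, and Ahsp was not matched. Plots were drawn with matplotlib 3.10.9.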

Additional observations from a re-analysis of the deposited data

How the results depend on the processing

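The count of called collagens was 0 in each direction under every setting tried. Without each mouse in turn, the genes called over the whole table ran from 0 to 56 higher (46 with all mice) and from 0 to 90 lower (1 with all mice), the count of positive collagens from 24 to 29, and class medians from -0.04 to 0.08 (fibrillar), 0.03 to 0.13 (type IV) and 0.07 to 0.11 (other). Genes called lower were 0 under median-of-ratios scaling and 2 under upper-quartile scaling and when scaled to reads in the listed genes. With reads not scaled to the library total, a setting added after the data were seen, 17 genes were called higher and 0 lower, the median of the other collagens was 0.05 in place of 0.10, and directions turned for Col1a1, Col3a1, Col5a1, Col5a3, Col6a4 and Col11a2 (each -0.03), Col1a2 (-0.02) and Col4a5 (-0.002). That setting shifts the median of all genes to -0.05. When scaled to reads in the listed genes, Col5a1 was -0.0007, Col6a4 was -0.0047 and Col11a2 was -0.0058. Col6a4 was -0.0098 with a pseudocount of 0.1 RPM and -0.01 on the deposited values. Otherwise 380 of 393 fits of single collagens kept their direction and side of the threshold. Leaving out a mouse turned the direction of 15 of 40: Col9a3 (-0.15 to 0.15), Col6a4 (-0.24 to 0.23), Col14a1 (-0.04 to 0.16), Col8a1 (-0.15 to 0.07), Col4a5 (-0.01 to 0.09), Col3a1 (-0.04 to 0.07), Col5a1 (-0.09 to 0.11), Col5a3 (-0.19 to 0.23), Col7a1 (-0.07 to 0.17), Col1a1 (-0.04 to 0.08), Col11a2 (-0.08 to 0.13), Col17a1 (-0.11 to 0.06), Col5a2 (-0.003 to 0.13), Col1a2 (-0.01 to 0.06) and Col20a1 (-0.0047 to 0.23). The cause of these turns was not tested. With the replicate number as a block, 8 genes were called higher and 0 lower; the numbers are not known to pair the mice (correlations of same-numbered deviations 0.0845, 0.268 and -0.0996), and no collagen call changed. Members under about 100 reads in all, such as Col2a1, Col11a1 and Col19a1, can show only large changes at this depth.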
